A study of Mus musculus with 6 samples.

Results

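The genes described here encode 6 proteins that detect RNA or Z-form nucleic acid in the cytosol, or that pass such a signal on: Ddx58, Ifih1, Dhx58, Eif2ak2, Zbp1 and Mavs. They were chosen by symbol, 6 of the 23836 genes in the table of transcript levels, and all 6 passed the filter of a mean of at least 1 RPKM (reads per kilobase of transcript, scaled to library depth) that kept 10531 genes. The cells were mature dendritic cells (maDC), grown from bone marrow of 6-week-old C57BL/6 mice with GM-CSF at 10 ng/ml and IL-4 at 1 ng/ml, selected for CD11c and then kept with LPS at 100 ng/ml for 24 h. Wild-type (Mettl3 WT) cells were compared with Mettl3 KO cells (Mettl3-/-, from Mettl3 fl/fl CD11c-Cre mice), in which the gene for the catalytic subunit of the N6-methyladenosine (m6A) methyltransferase is deleted by a recombinase driven by the CD11c promoter, so that cells which did not express CD11c keep the gene. Each genotype was read at 0, 3 and 6 h of actinomycin D, which blocks transcription, with 1 library at each time and 6 libraries in all. By the treatment label, LPS-treated cells were split among the 3 times. The paper names more than 1 littermate pair of WT and KO mice for the lifetime experiment, but whether these libraries pool pairs is not stated. Here 1 culture per genotype is assumed. Every difference below thus compares a WT with a KO culture, has no replicate check and is given no p-value. The library titles also carry a mark that is not explained, D3 on the WT and D2 on the KO libraries, and what it stands for cannot be told apart from the genotype. Times are the only repeats, and an SD over times covers neither mice nor cultures.

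In the cytosol, RIG-I (encoded by Ddx58) binds short double-stranded RNA with a triphosphate end, and MDA5 (Ifih1) binds long double-stranded RNA. Both signal through MAVS, an adaptor on the outer mitochondrial membrane, to the kinases and transcription factors that induce type I interferon. LGP2 (Dhx58) is the member of the same helicase family that lacks the signalling CARD domains and tunes the other receptors. PKR (Eif2ak2) is a kinase that is activated by double-stranded RNA and phosphorylates the initiation factor eIF2 alpha, which lowers translation. ZBP1 binds Z-form RNA or DNA and engages RIPK3 and MLKL, which carry out necroptosis. Transcripts of all these genes except Mavs are known as interferon-inducible, whereas Mavs is known as broadly expressed.

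In GRCm38 coordinates of GENCODE release 21, Ddx58 lies on chromosome 4 from 40203773 to 40239828, Ifih1 on chromosome 2 from 62595798 to 62646255 and Dhx58 on chromosome 11 from 100694884 to 100704271, all on the minus strand. Eif2ak2 lies on chromosome 17 from 78852564 to 78882573 and Zbp1 on chromosome 2 from 173206612 to 173218923, also on the minus strand, and Mavs lies on chromosome 2 from 131234063 to 131248025 on the plus strand. Exons of Dhx58 overlap those of the antisense gene Dhx58os, and exons of Eif2ak2 overlap those of Gm26637 and n-R5s29, all on the opposite strand. The sources used here do not say whether reads were counted by strand, and reads from such shared stretches cannot be told apart without it.

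The start regions of 4 of the 6 genes were matched in the RefSeq promoter set (GRCm38.p6, 250 bases before to 50 after the gene start), and their stretches are shown because the interferon-inducible members and Mavs differ in them. The interferon-stimulated response element, searched on both strands as GAAA, then any 2 bases, then GAAA, was found once each in Ddx58, Ifih1 and Eif2ak2 and not in Mavs. It was found in 3.44% of all 32851 promoters. Capitals mark it in the first 3 sequences, each of which is printed 5′ to 3′ on the strand of its gene. The Ddx58 match is on the other strand and reads as its reverse complement. In Mavs the capitals mark CCAAT, which was found there in 2 places and in 2 or more places in 11.7% of all promoters.
Ddx58, chr4:40239804-40239833, minus strand, bases -8 to 22 from the RefSeq gene start: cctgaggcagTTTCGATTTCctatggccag
Ifih1, chr2:62646206-62646235, minus strand, bases 21 to 50: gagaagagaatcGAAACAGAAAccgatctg
Eif2ak2, chr17:78882535-78882564, minus strand, bases 9 to 38: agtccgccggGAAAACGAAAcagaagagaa
Mavs, chr2:131233963-131234062, plus strand, bases -100 to -1: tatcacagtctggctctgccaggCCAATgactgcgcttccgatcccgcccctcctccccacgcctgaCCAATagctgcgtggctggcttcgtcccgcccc

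The Eif2ak2 window also held TTCNNNGAA, the interferon gamma-activated site, which starts at base -178 and was found in 8.30% of all promoters. These motifs are matches of letters only and were not measured as binding sites in these cells. For Dhx58 and Zbp1 no promoter is shown.

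Across the whole table the libraries were of like depth, with about 18800000 to 22400000 reads each, estimated from the smallest step of the values. ERCC spike-in RNA was added in proportion to total RNA. Of the summed values it took 10.8, 22.9 and 30.3% over the WT times, and 7.89, 24.2 and 17.5% over the KO times. On amounts scaled by it, KO and WT differed at the median gene by 0.40 log2 units at 0 h, by -0.26 at 3 h and by 1.19 at 6 h (KO minus WT), against 0.02, 0.00 and 0.09 in RPKM. The median KO gene was at 12.2% of its 0 h amount at 3 h and at 15.3% at 6 h. The KO course was thus not a steady decline. Which KO library departs from one cannot be told, and whether spike-in scaling is at fault was not tested. Levels are for this reason given as log2 ratios of KO to WT relative to the median gene unless stated, which no library factor can move. The RPKM of Mettl3 itself was 7.79, 2.68 and 2.59 over the WT times and 6.99, 4.83 and 4.06 over the KO times. The KO allele lacks early exons only, so a value over the whole gene cannot check the genotype. The 8 DC markers had a lower sum in KO than in WT at each time. The sums were 6005 against 6623 RPKM at 0 h, 4793 against 5517 at 3 h and 6273 against 7231 at 6 h. At 0 h Cd74 was at 2884 RPKM in KO against 3315 in WT, and H2-Ab1 at 792 against 1040. Of the others at 0 h, Ccr7 (1863 against 1771) and Flt3 (30.8 against 27.0) were higher in KO, and Itgax, Zbtb46, Cd83 and Cd86 lower. Relative to the median gene, 5 of the 8 DC markers were below at all 3 times (29.1% of all genes) and none above (24.0%). The part of these differences in the ratios below was not tested. The defining marker Itgax (CD11c) was at 10.0 to 27.7 RPKM. The 9 T, NK and B cell markers summed to no more than 6.95 RPKM.

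All 6 sensor genes were transcribed in maDC, and their levels covered a wide range. Zbp1 was by far the highest, above 93.6% of genes or more in every library, followed by Dhx58, and Mavs was the lowest. Before actinomycin D, Zbp1 was at 125 RPKM in WT and 176 RPKM in KO, and Mavs was at 15.8 and 15.6 RPKM. Between these ends, Ddx58, Eif2ak2 and Ifih1 lay close together in WT at 0 h, at 25.1, 21.4 and 21.4 RPKM, and Eif2ak2 and Ifih1 could not be ordered there. Estimated reads per gene and library ran from 314 for Mavs in WT at 6 h to 7017 for Zbp1 in KO at 0 h, so counting error was smallest for Zbp1 and widest for Mavs.

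**Figure D1:**
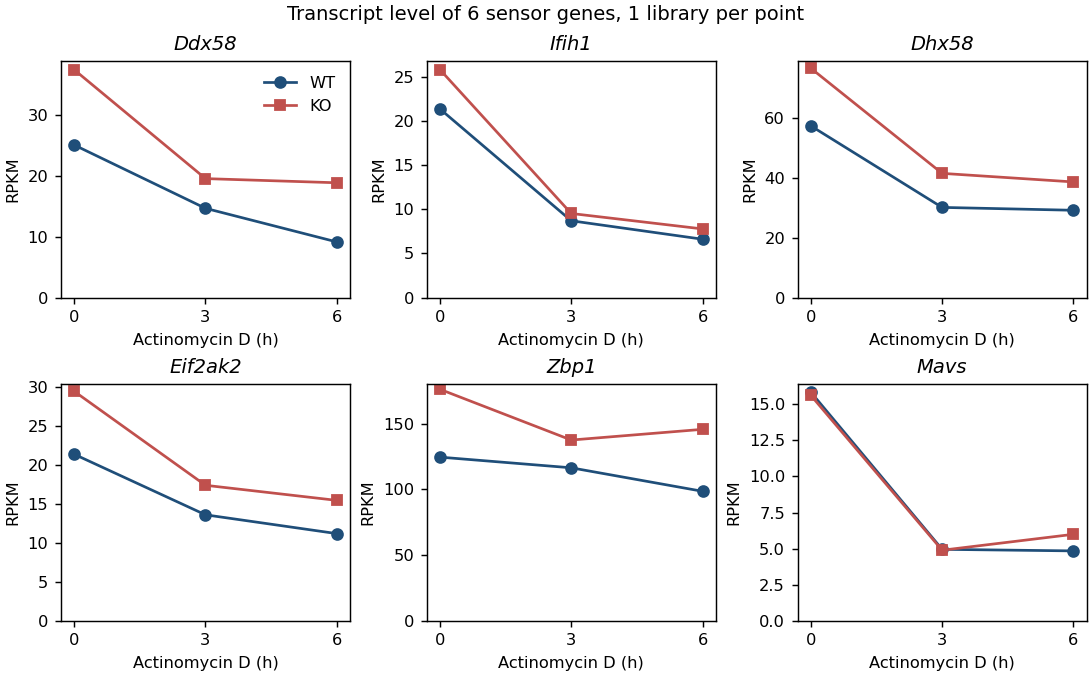
RPKM (linear axis from 0, own scale in each panel) against hours of actinomycin D for the 6 genes, 1 library per point, WT as blue circles and KO as red squares. The KO points lie above WT at all 3 times for every gene but Mavs, where the lines overlie each other at 0 and 3 h.

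Ddx58, the RIG-I gene, was higher in KO than in WT at each time. At 0, 3 and 6 h its RPKM was 25.1, 14.7 and 9.16 in the WT libraries, against 37.5, 19.6 and 18.9 in the KO libraries. The KO level at 6 h thus stayed near that at 3 h, while the WT level went on down. Relative to the median gene its log2 ratio of KO to WT was 0.55, 0.38 and 0.91 in order of time (0.61 ± 0.27, SD over 3 times), the highest mean of the 6 genes and above 96.3% of all genes tested. The 95% counting interval of the ratio was 0.27 to 0.49 at 3 h and 0.78 to 1.04 at 6 h, and these do not overlap. Counting intervals cover neither culture nor library preparation, and fewer cells that express a gene cannot be told apart from less RNA per cell in such bulk samples.

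Ifih1, the MDA5 gene, differed less between the genotypes than the other receptor genes. Its RPKM was 21.4, 8.71 and 6.62 over the WT times and 25.8, 9.53 and 7.78 over the KO times. The relative log2 ratio was 0.25, 0.10 and 0.11 (0.15 ± 0.08, SD over 3 times), and the counting interval held 0 at 3 h (-0.02 to 0.22) and at 6 h (-0.04 to 0.25). Ifih1 was thus above WT beyond counting error at 0 h alone, and 74.8% of genes had a lower mean ratio.

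Dhx58, the LGP2 gene, was higher in KO by a like amount at each time. WT cells had 57.5, 30.2 and 29.3 RPKM of it at the 3 times, and KO cells 76.8, 41.6 and 38.8 RPKM. Its relative log2 ratio was 0.39, 0.43 and 0.28 (0.37 ± 0.08, SD over 3 times), with every counting interval above 0. In WT and in KO its RPKM was lower by nearly the same factor at 3 and 6 h.

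Mavs, the gene of the common adaptor, had nearly the same RPKM in both cultures at 0 and 3 h. Its RPKM in order of time was 15.8, 4.95 and 4.84 for WT, with 15.6, 4.89 and 5.99 for KO. The relative log2 ratio was -0.05, -0.05 and 0.18 (0.03 ± 0.13, SD over 3 times), and the counting interval held 0 at each time, from -0.17 to 0.08 at 0 h, -0.27 to 0.17 at 3 h and -0.04 to 0.40 at 6 h. No difference between the genotypes was detectable for Mavs at this depth, and the intervals do not show that the levels were equal.

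Eif2ak2, the PKR gene, was also higher in KO at each time, by nearly the same mean ratio as Dhx58. WT cells had 21.4, 13.6 and 11.2 RPKM at 0, 3 and 6 h, and KO cells 29.5, 17.4 and 15.5 RPKM. Its relative log2 ratio was 0.43, 0.32 and 0.34 (0.36 ± 0.06, SD over 3 times), the narrowest range over times among the 6 genes, with every counting interval above 0.

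Zbp1 was the most abundant of the 6 transcripts and also higher in KO at each time. Its RPKM over time was 125, 116 and 98.5 for WT, with 176, 138 and 146 for KO. The relative log2 ratio was 0.47, 0.21 and 0.44 (0.37 ± 0.14, SD over 3 times). Its counting intervals were the narrowest, and the one at 3 h (0.15 to 0.26) lay below those at 0 h (0.42 to 0.52) and 6 h (0.38 to 0.50).

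In counts, Ddx58, Ifih1, Dhx58, Eif2ak2 and Zbp1 were above the median gene in KO at all 3 times, 5 of 6, where 24.0% of all genes were, and none of the 6 was below it at all 3 times, where 29.1% were. None of the 6 reached 1.5-fold at all 3 times in the higher direction (1.61% of genes did) or in the lower direction (0.931%). At 0 h alone none reached 1.5-fold higher either, against 4.41% of genes, and Ddx58 came closest at 1.46-fold. The mean ratio over times was 1.53-fold for Ddx58, 1.29-fold for Dhx58 and Eif2ak2 and 1.11-fold for Ifih1.

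**Figure D2:**
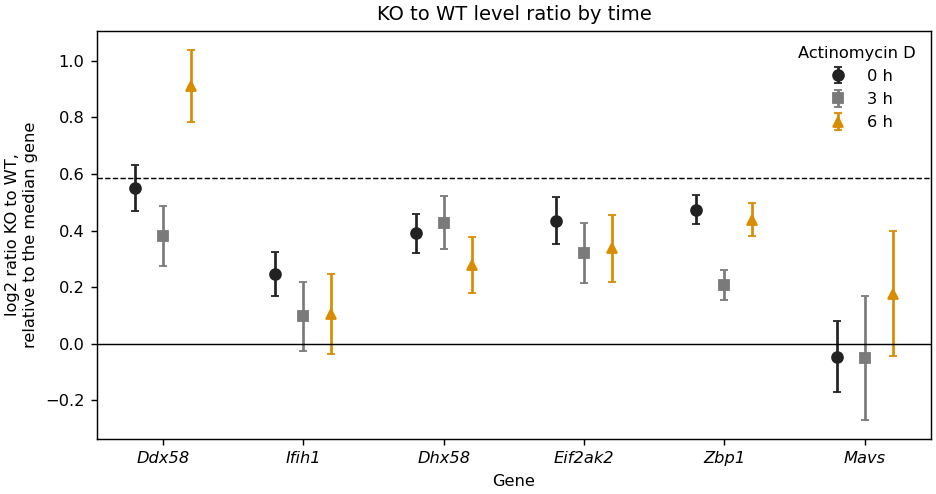
Log2 ratio of KO to WT relative to the median gene (vertical axis) for each gene at 0 h (black circles), 3 h (grey squares) and 6 h (orange triangles), with bars for the 95% counting interval. The solid line marks the median gene and the dashed line 1.5-fold, which only Ddx58 at 6 h (0.91) passed, while every Mavs interval crosses 0.

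Scaled by the spike-in RNA, the ratios of the 6 genes moved with the median gene at each time. At 0 h they were 0.95 for Ddx58, 0.64 for Ifih1, 0.79 for Dhx58, 0.83 for Eif2ak2, 0.87 for Zbp1 and 0.35 for Mavs. At 3 h they were nearer to 0, from -0.28 for Mavs to 0.20 for Dhx58, and at 6 h they were 1.33 to 2.14. Ifih1, Zbp1 and Mavs had a ratio below 0 at 3 h and above 0 at the other times. On this scale none of the 6 reached 1.5-fold at all 3 times, where 2.26% of genes were higher. All but Mavs, 5 of them, reached it at 0 and 6 h. The median gene itself stood at 0.40 at 0 h and at 1.19 at 6 h on this scale. How many of all genes reached 1.5-fold at both times was not counted.

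Neutrophil markers differed between the cultures in the same libraries. The 9 markers had a summed RPKM of 4200, 3432 and 2590 over the WT times, against 10258, 5759 and 2451 over the KO times, and none of the 9 was at 0 in all libraries. Of the 7 that passed the filter, Ngp and Ltf were 1.5-fold or more higher in KO at all times and Mmp8 lower. At 6 h the sums were close, with S100a8 at 1539 RPKM in WT against 1233 in KO, but Ngp (39.3 against 90.6), Ltf (4.69 against 12.0), Camp (34.4 against 47.1) and S100a9 (934 against 1052) were still higher in KO. The part of such cells in the ratios of the sensor genes was not tested. Among 8 macrophage markers that passed the filter, the Fc receptor Fcgr1 and the complement gene C1qa were higher in KO at all times by the same rule (1.61% of all genes were). Relative to the median gene, 5 of the 8 were above at all 3 times (24.0% of all genes) and 1 below (29.1%). The 1 below was Adgre1, at 270 RPKM in WT and 224 RPKM in KO at 0 h. The 9 macrophage markers summed to 730, 1016 and 830 RPKM over the WT times, against 744, 975 and 1026 over the KO times.

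Decay was measured by the loss of spike-in scaled transcript under actinomycin D. A rate per h (log2 units) was taken over the first 3 h and another over all 6 h, and the inverse of their mean gave the half-life. By half-life the 6 genes fell into the same order in both cultures. Mavs had the shortest half-life, 1.16 h in WT and 1.14 h in KO, followed by Ifih1 with 1.25 and 1.15 h, so the adaptor and MDA5 transcripts were shorter-lived than the median gene (1.45 and 1.37 h). Ddx58, with 1.45 and 1.38 h, and Dhx58, with 1.47 and 1.39 h, lay near the median gene, and their counting intervals overlapped in both cultures. Eif2ak2 was next at 1.59 and 1.45 h, apart from Dhx58 by counting error in WT but not in KO. Zbp1 was the longest-lived at 2.05 h in WT and 1.75 h in KO (95% counting interval 1.72 to 1.79 h), and in WT only 17.5% of genes had a lower decay rate. The intervals of Mavs and Ifih1 were apart in WT (1.11 to 1.21 h and 1.22 to 1.29 h) but overlapped in KO.

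The percent of the 0 h amount that was left shows the shape behind these half-lives. For Zbp1, 33.8% was left at 3 h and 15.1% at 6 h in WT, and 18.2% and 26.2% in KO. For Mavs it was 11.3% and 5.84% in WT and 7.29% and 12.1% in KO. Zbp1 had the most left of the 6 genes in every library, and Mavs the least in all but KO at 6 h, where Ifih1 had less. Ifih1 lay close to Mavs, with 14.7% and 5.92% left in WT and 8.60% and 9.53% in KO. The other receptor genes were near the median gene in KO, where Ddx58 had 12.2% left at 3 h and 15.9% at 6 h and Dhx58 12.6% and 16.0%. In WT they parted after 3 h, since Ddx58 went from 21.2% to 6.97% and Dhx58 from 19.0% to 9.72%. Eif2ak2 had 23.0% and 10.0% left in WT and 13.8% and 16.6% in KO, second to Zbp1 at each time in both cultures. All 6 genes thus had less left in KO than in WT at 3 h and more at 6 h, as did the median gene (19.3% and 8.66% in WT), and all 6 scaled amounts in KO were higher at 6 h than at 3 h although transcription was blocked. A half-life in KO therefore averages an early loss and a later apparent gain, and depends on the times used.

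**Figure D3:**
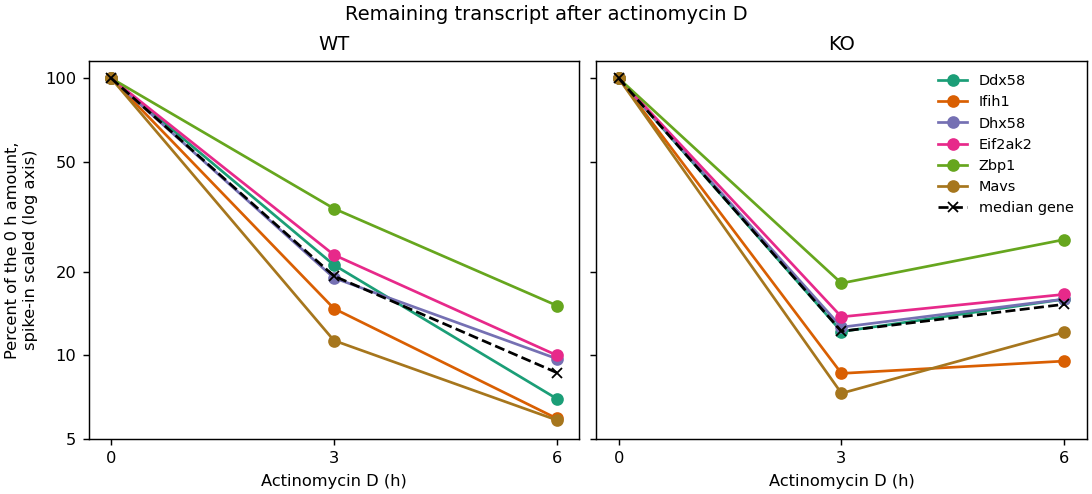
Percent of the 0 h spike-in scaled amount (log axis) against hours of actinomycin D in WT (left) and KO (right), 1 coloured line per gene and the median gene as a dashed line. Zbp1 lies highest in both panels, and in KO every line turns upward between 3 and 6 h, from 18.2% to 26.2% for Zbp1 and from 7.29% to 12.1% for Mavs.

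Between KO and WT, the half-lives of none of the 6 genes differed by the rule of 1.5-fold with both rates differing in the same direction, either on spike-in scaled amounts (1.39% of genes) or relative to the median gene (1.94%). The relative difference in decay rate, KO minus WT, was -0.010 per h for Ddx58, 0.028 for Ifih1, -0.005 for Dhx58, 0.019 for Eif2ak2, 0.039 for Zbp1 and -0.026 for Mavs. The 95% counting interval held 0 for every gene but Zbp1, where it was 0.023 to 0.055 per h. The difference for Zbp1 corresponds to a KO half-life 0.926 times that of WT. Of all genes tested, 78.1% had a lower relative difference than Zbp1, and its counting error (0.008 per h) was the smallest of the 6. For Zbp1 the difference lay in the first 3 h (0.077 per h) and was 0.001 per h over 6 h. Ifih1, Eif2ak2 and Zbp1 had a rate above the median difference over both spans, where 32.4% of all genes were. Mavs alone had a rate below it over both, where another 32.4% of all genes were. The relative difference had opposite signs over the first 3 h and over all 6 h for Ddx58 (0.046 and -0.065 per h) and for Dhx58 (-0.024 and 0.013 per h).

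GGACT is a frequent form of the motif in which the Mettl3 complex methylates adenosine. In the longest coding transcript of each gene it occurred 5 times in Ddx58, 3 in Ifih1, 7 in Dhx58, 9 in Eif2ak2, 1 in Zbp1 and 3 in Mavs, against a median of 3 over 9820 genes. Eif2ak2 held 7 of its 9 in the 3′ untranslated region, while all 7 of Dhx58 lay in the coding sequence. By density Dhx58 had 2.90 per kb, above 97.6% of genes, and Zbp1 0.503 per kb, above 17.8%. Dhx58 and Eif2ak2, with the highest densities of the 6, had relative decay differences of -0.005 and 0.019 per h. A match does not show methylation, and m6A was not measured in these libraries.

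By the form of their profile over the 6 libraries, Dhx58 and Eif2ak2 were the closest pair. Likeness was the root mean square difference of log2 levels relative to the median gene, each gene centred on its own mean, among the 6776 genes whose mean reached 5 RPKM. It was 0.094 between Dhx58 and Eif2ak2, and only 24 genes were nearer to Dhx58 than Eif2ak2 was. Zbp1 and Mavs were the farthest apart at 0.66. Among the 6, Mavs was nearest to Ifih1 (0.22), which ranked only 622 of 6775 genes by nearness to Mavs. The 3 genes nearest of all to Mavs were Rchy1, Tmem173 and Siah1a. Tmem173 encodes STING, the adaptor of cytosolic DNA sensing, and its profile was 0.064 from that of Mavs, with an RPKM of 32.6, 10.3 and 11.1 for WT against 31.5, 11.0 and 13.0 for KO.

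The nearest profiles to the other sensor genes were of varied genes. They were Mrps34, Lpgat1 and Fam32a for Ddx58 (0.064 to 0.094), Rrp36, Ranbp3 and Smarce1 for Ifih1 (0.045 to 0.058) and Gadd45gip1, Pbx2 and Cpsf4 for Dhx58 (0.037 to 0.053). For Eif2ak2 they were Dpysl2, Pou2f2 and the nuclear body gene Sp100 (0.065 to 0.066), and for Zbp1 Ogfod2, Fam132a and Idua (0.053 to 0.075). Mrps34, a mitochondrial ribosomal protein gene, shared the wide 6 h gap of Ddx58, at 11.2 RPKM in WT and 23.4 RPKM in KO.

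The other genes of the pathways were read from 8 lists, of which 113 genes passed the filter. Of these, 39 were above the median gene in KO at all 3 times (24.0% of all genes tested were) and 25 below it (29.1% of all genes). Those 1.5-fold or more higher at all 3 times were 5 genes (1.61% of all genes). The counts of each list below are to be read against the same shares. The 5 were Ifi204 and Trex1 of cytosolic DNA sensing, Oasl1 and Ifit1 of the other RNA-binding sensors, and the endosomal receptor gene Tlr3. The median of the 113 mean log2 ratios was 0.07, against -0.03 for all genes tested. No list member differed in decay relative to the median gene by the 1.5-fold rule.

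Downstream of RIG-I and MDA5, the 19 signalling relays were not counted in either direction, with 6 above and 5 below the median gene at all times and a median ratio of 0.04. Irf7, the interferon-inducible transcription factor, was at the upper end at 0.63 ± 0.15 (SD over 3 times), with an RPKM of 376 for WT against 662 for KO at 0 h, and 850 against 1301 at 6 h. Ikbkg, which encodes the NEMO subunit of the IKK complex, was at the lower end at -0.24 ± 0.18. The 28 regulators of RIG-I, MDA5 and MAVS that passed the filter had a median of 0.07. They ran from the ubiquitin ligase Itch at -0.36 ± 0.06 to Trim25, a ligase reported to ubiquitinate RIG-I, at 0.59 ± 0.03. Trim25 had an RPKM of 55.0, 23.4 and 20.5 for WT against 83.2, 36.8 and 33.3 for KO, a gap of nearly equal size at each time.

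Beside PKR, the 18 genes of the eIF2 alpha arm had a median ratio of 0.00 and none was counted. They ran from Eif2ak4, the kinase GCN2, at -0.28 ± 0.14 to Ddit3, the transcription factor CHOP, at 0.61 ± 0.16. The 10 genes of the ZBP1 necroptosis arm had a median of 0.15, with none counted, 5 above and 1 below the median gene at all times. Mlkl, the executioner of necroptosis, was at the upper end at 0.52 ± 0.21, with an RPKM of 8.94 for WT against 11.6 for KO at 0 h, and 11.4 against 21.1 at 6 h, and Nlrp3, an inflammasome sensor, was at the lower end at -0.42 ± 0.14.

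Other nucleic acid sensors spread more widely than the 6 genes. Of 15 other cytosolic RNA-binding sensors and cofactors, 9 were below the median gene at all times and 4 above, with a median of -0.16. At the upper end stood Ifit1, which binds RNA lacking cap methylation, at 1.13 ± 0.26. Oasl1 was at 0.94 ± 0.20, with 113 RPKM in WT and 187 RPKM in KO at 0 h. Of the 12 cytosolic DNA sensing genes, the exonuclease gene Trex1 was at 0.89 ± 0.17 and Ifi204 at 0.75 ± 0.19, while the DNA sensor Aim2 was lowest at -0.46 ± 0.21, and the median was 0.05.

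The list of endosomal receptors, whose 10 genes include partners such as Myd88 and Unc93b1, had the highest median of the 8 lists, 0.28. Of its genes, 6 were above the median gene at all times and none below. Tlr3, the endosomal receptor for double-stranded RNA, was at 1.05 ± 0.30, with 1.86 RPKM in WT and 3.41 RPKM in KO at 0 h. The chaperone gene Hsp90b1 was the lowest at -0.04 ± 0.20. Of the type I interferon receptor and ISGF3 list, 7 genes passed the filter and none was counted, from the kinase Jak1 at -0.18 ± 0.16 to the transcription factor Stat2 at 0.41 ± 0.21. The interferon genes Ifnb1 and Ifna4 of that list did not pass the filter. Ifna4 was at 0 in every library. Ifnb1, near the floor, was at 0.13, 0.13 and 0 RPKM over the WT times against 1.57, 0.26 and 1.54 over the KO times.

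**Figure D4:**
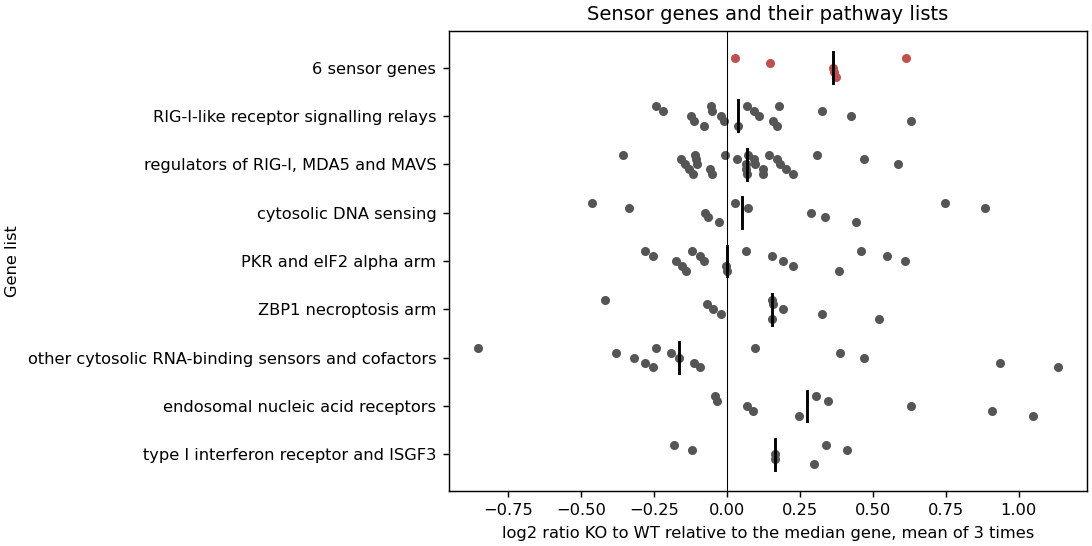
Mean log2 ratio of KO to WT over the 3 times, relative to the median gene, 1 point per gene for the 6 sensor genes (red) and the 8 pathway lists (grey), with black bars for the median of each list. Of the 6 sensor genes 4 lie at 0.36 or above, and the lists have medians from -0.16 to 0.28, with Ifit1 at the right end.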

How the data were processed

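Poly(A) RNA of 6 libraries (LPS-matured BMDC, 2 genotypes, 3 actinomycin D times) was sequenced with ERCC spike-in RNA. The submitters' processing notes name bcl2fastq, TopHat2 2.0.14, Cuffnorm and the mm10 build. No source used here names the gene annotation. The deposited values are RPKM plus 1, multiplied by the authors by 1 factor per library, in a sheet of 23863 rows and a sheet of 92 ERCC transcripts. Dividing each column by its lowest value and subtracting 1 gave back RPKM, and 27 rows whose symbols had become dates were dropped. The authors' lifetimes are their own comparison and were not used.

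Each spike-in factor was a median log2 ratio over 75 ERCC transcripts detected in every library. Before logarithms, 0.1 RPKM was added to each value as a pseudocount, which shrinks log2 ratios of weakly expressed genes. The filter was a mean of 1 RPKM. Rates under 0.02 per h were set to 0.02. For relative decay the WT rates kept the spike-in scale. With 1 library per group no test was possible. Depth was taken from the value of 1 read in genes with a single annotated transcript (GENCODE release 21), and 95% counting intervals from the reads so estimated, which cover counting error only.

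The members and the gene lists were chosen with earlier results of these data known. Named genes were the 6 members, the highest and lowest of each pathway list with those counted, and the 3 nearest profiles of each member. A gene of these lists that is not named is not reported here. The marker genes named were chosen after their values were seen. Alternatives were other pseudocounts, filters, thresholds, scalings and leaving out the 3 h or the 6 h libraries. Scripts (Python 3.11.15, pandas 2.3.3) were tested on simulated data.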

Additional observations from a re-analysis of the deposited data

Results flagged for a closer look

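On spike-in scaled amounts, the log2 ratio of KO to WT had opposite signs at 3 h and at 0 h for 3 of the 6 genes. It was -0.13 at 3 h against 0.64 at 0 h for Ifih1, -0.022 against 0.87 for Zbp1 and -0.28 against 0.35 for Mavs. The median gene also changed sign between these times, from 0.40 to -0.26. Relative to the median gene, Mavs was at 0.18 at 6 h and at -0.05 at 0 h, and its counting interval held 0 at both. With 1 library per genotype and time these differences between times were not tested.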

How the results depend on the processing

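The count of sensor genes above the median gene in KO at all 3 times, 5, held under both other pseudocounts, the other filters, centring on the median of genes of at least 20 RPKM, and without the 3 h or the 6 h libraries. It was 4 with scaling by summed RPKM, where Ifih1 was lost, and 3 on spike-in scaled amounts (Ddx58, Dhx58 and Eif2ak2). The alternatives for this count and for single levels were chosen after seeing the data. The count of genes 1.5-fold higher was 0 relative to the median gene under every alternative tried. It was 5 on spike-in scaled amounts at 0 h, and 5 at all times without the 3 h libraries (all but Mavs in both). On that scale the median gene itself was at 0.40 at 0 h and at 1.19 at 6 h. The count differing in decay was 1 relative to the median gene with no spike-in scaling, and 1 on spike-in scaled amounts without the 6 h libraries, Zbp1 in both. For these alternatives the share of all genes was not counted, and the cause of the changed counts was not tested.

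The mean level ratio of Mavs lay between -0.05 and 0.06 over the alternatives and changed sign, and that of Eif2ak2 was 0.30 with scaling by summed RPKM. Half-lives depended on the times and the scaling, and 61 of 84 alternative values lay outside the counting interval. Zbp1 ran from 1.92 to 22.5 h in WT and from 1.22 to 12.1 h in KO, highest in both with no spike-in scaling, and Mavs from 0.960 to 2.40 h and from 0.798 to 2.56 h. Zbp1 was the longest-lived and Mavs the shortest-lived under every alternative, except that Ifih1 was the shortest in KO with a pseudocount of 1 RPKM and without the 3 h libraries. No paired analysis was possible because each genotype and time has 1 library. Depth limits Mavs most, with about 314 reads in its thinnest library.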
